A study of Caenorhabditis elegans with 4 samples.

Results

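The pud genes of the nematode Caenorhabditis elegans encode small proteins. PUD-1 and PUD-2 were first noted for their greater abundance in animals with reduced insulin signalling. The 6 pud genes are pud-1.1, pud-1.2, pud-2.1, pud-2.2, pud-3 and pud-4. Only pud-2.1 and pud-4 had a probe of their own, found by current symbol among probes annotated with a single gene. These 2 genes were described among 14943 named genes on the arrays. The other 4 were not analysed here, and no probe listed them by symbol, gene ID or transcript accession.

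RNA was compared on 4 two-channel arrays. On each, total RNA from 1 prep of glp-4 animals at L4, the last larval stage, was set against wild-type RNA of mixed stages, which served as reference on all 4 arrays. Mutants of glp-4, the gene for a valyl-tRNA synthetase, are known for germ cells that do not proliferate at the restrictive temperature. Allele, temperature, staging and culture of the preps are not in the labels. Whether the preps were independent cultures is therefore unknown, and the spread between them may be technical. Genotype and stage differ together between the channels and cannot be told apart. The same holds, in RNA of whole animals, for a change in the number of cells of a type and a change in RNA per cell.

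The measured quantity is the log2 ratio between the channels, where 1 unit is a doubling and 0 is equality with the reference. Which channel is the numerator is not stated by the labels. The reading used here, glp-4 L4 over reference, follows the channel order and is likely but not settled, and every higher and lower depends on it. Spot intensities were not used here, so how far a value lay above background, and whether large ratios were compressed, is unknown. Precision is limited by there being 4 arrays.

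In animals with less active DAF-2, the insulin receptor of the worm, the transcription factor DAF-16 enters nuclei and changes the transcription of many genes. PUD-1 and PUD-2 proteins accumulate in such animals and are known from the intestine and the epidermis (hypodermis), where they form a heterodimer in which both partners have a beta-sandwich fold. PUD-4 is a related protein that is known as a monomer. Deletion of the pud-1 and pud-2 genes is known not to alter lifespan. The genes pud-2.1 and pud-2.2 are copies of each other, so the signal of the pud-2.1 probe may include RNA of pud-2.2.

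Both measured genes were selected on their high log2 ratios in these same preps. Their ratios are therefore given as values, with no test, and support nothing by themselves.

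The gene pud-4 (F15E11.12, gene ID 178712, chromosome V) had log2 ratios of 5.20, 5.34, 6.01 and 6.18 on preps 1 to 4. Preps 3 and 4 were the high ones and preps 1 and 2 the low ones. The mean was 5.68 ± 0.49 (SD, n = 4), a ratio of 51.4 to 1, and the single preps ran from 36.8 to 72.8 to 1.

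The gene pud-2.1 (F15E11.1, gene ID 178713, chromosome V), 1 of the genes for PUD-2, had log2 ratios of 5.20, 5.57, 5.57 and 5.14 on preps 1 to 4. Here preps 2 and 3 were high and preps 1 and 4 low, within a range of 0.43 between the lowest and highest. The mean was 5.37 ± 0.23 (SD, n = 4), a ratio of 41.3 to 1, and the single preps ran from 35.4 to 47.5 to 1.

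The ranges of the 2 genes overlapped. Within a prep, the log2 ratio of pud-4 minus that of pud-2.1 was 0.01, -0.23, 0.44 and 1.04 on preps 1 to 4. Its mean of 0.32 was smaller than its SD of 0.56 (n = 4), so the order of these neighbours was not settled by the 4 preps. Without prep 4 the mean difference was 0.07, and with preps 3 and 4 averaged as 1 replicate it was 0.17. On preps 1 and 2 it averaged -0.11 and on preps 3 and 4 it averaged 0.74.

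The preps with the higher pud-4 values, 3 and 4, share a code and a date in their titles, and they were also the arrays with the widest spread of ratios, an SD over all probes of 1.06 and 1.09 against 0.92 and 0.99 for preps 1 and 2. In units of each array's SD above its median, pud-4 stood at 5.61, 5.40, 5.80 and 5.77, and pud-2.1 at 5.61, 5.62, 5.38 and 4.81. On this scale the values of pud-4 lay close together and prep 4 gave the lowest value of pud-2.1. Among the 32 other named genes with a mean log2 ratio of at least 4 and values on all arrays, 25 had a higher average on preps 3 and 4 than on preps 1 and 2, with a median difference of 0.55. The corresponding difference was 0.83 for pud-4 and -0.02 for pud-2.1. The part of array spread in the pud-4 values was not tested.

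On the log2 scale as deposited, the SD between preps was larger for pud-4 than for pud-2.1, an order that the values in array SDs do not keep. An item is a named gene or a probe without a gene name. Of 294 items measured on all arrays with a mean at least 3 log2 units from 0, 54.8% had a smaller SD than pud-4 and 14.97% had a smaller SD than pud-2.1. The median SD of those items was 0.45, against 0.30 for all items on 4 arrays.

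**Figure D1:**
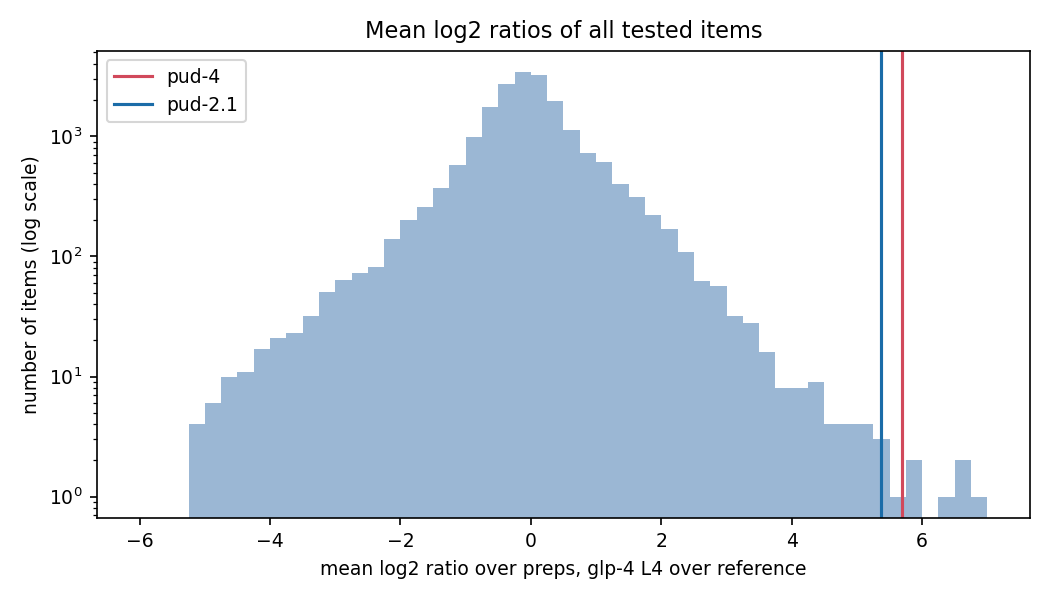
Histogram of the mean log2 ratio (glp-4 L4 over reference, horizontal axis) of 19989 items, with the number of items on a log scale (vertical axis) and a line at pud-4 (5.68) and at pud-2.1 (5.37). Both lines lie in the far right tail, where 14 items have a mean of at least 5.

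Over the whole table, pud-4 had the 7th and pud-2.1 the 9th highest mean of 19989 items, and they were 4th and 6th of 14940 named genes tested. Among 3851 genes of chromosome V they were 2nd and 3rd. The rank of pud-4 among named genes was 6, 3, 4 and 6 on preps 1 to 4, while that of pud-2.1 was 7, 2, 5 and 18. Prep 4 was thus the only array on which pud-2.1 fell outside the first 10 named genes. With the direction of the ratio turned, the same ranks would count from the lowest ratio. Both genes were among the items higher at a limma adjusted p under 0.05, as were 20.6% of all items. The choice of the 2 genes used these ratios, so that count carries no information about them.

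The 6 pud genes stand side by side on chromosome V, in the order pud-1.2, pud-2.2, pud-3, pud-4, pud-2.1 and pud-1.1 in the RefSeq gene table (assembly WBcel235), with no other gene between them. The 2 measured genes are therefore immediate neighbours. Of the 5 genes listed on each side of the 6, 4 were measured, all on the side of pud-1.1. They belong to the irld family, whose products resemble the ligand-binding domains of insulin and EGF receptors, and 1 of them, irld-31, is annotated as a pseudogene.

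None of these 4 neighbours approached the pud ratios. The nearest to the pud genes, irld-32, had log2 ratios of 0.28, 0.95, 0.33 and 0.36 on preps 1 to 4 and a mean of 0.48 ± 0.32 (SD, n = 4; limma adjusted p = 0.038). Prep 2 stood above the others, and the adjusted p from limma was 0.21 without it, 0.069 without prep 3 and 0.0899 without prep 4. The mean of irld-28 was -0.10 ± 0.19 (limma adjusted p = 0.61), that of irld-30 was 0.25 ± 0.28 (limma adjusted p = 0.22) and that of irld-31 was 0.0005 ± 0.38 (limma adjusted p = 0.998). All 16 values of the 4 genes lay between -0.46 and 0.95, below every value of pud-4 and pud-2.1.

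**Figure D2:**
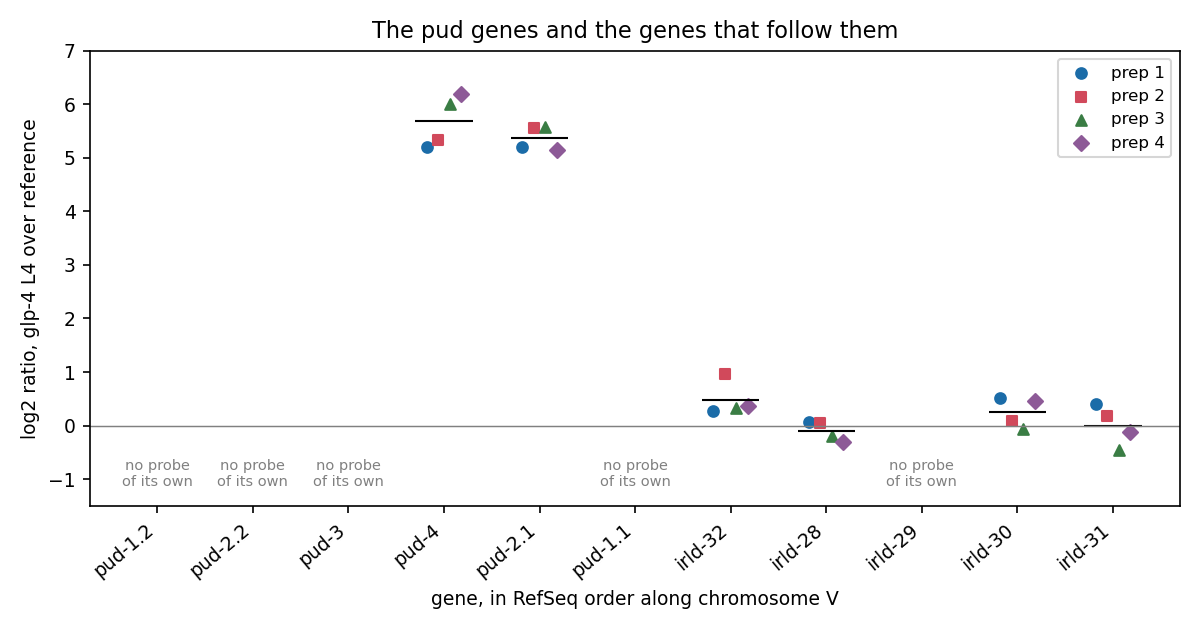
Log2 ratios (glp-4 L4 over reference, vertical axis) of the pud genes and of the 5 genes after them in RefSeq order along chromosome V, with a symbol for each prep and a bar at the mean of each gene. The values of pud-4 and pud-2.1 lie between 5.14 and 6.18, while those of the irld genes lie between -0.46 and 0.95.

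A wider stretch, taken after the values were seen, gave a similar picture. Of the 10 nearest measured genes on each side, many of them nuclear hormone receptor (nhr) and chemoreceptor genes, 5 were higher and 0 lower by limma's adjusted p, against 20.6% and 24.4% of all items. Their median was 0.18, and their means ran from -0.51 to 1.098, the highest being that of the nuclear hormone receptor gene nhr-226.

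Measured genes that follow each other on a chromosome with no measured gene between them formed 14933 pairs. Ordered by the smaller of the 2 means, the pair of pud-4 and pud-2.1 came 1st, at 5.37. The next were cld-1 with dod-21, at 5.14, F55G11.2 with mbug-1, at 4.47, and dod-19 with irg-8, at 4.37. With the direction turned, these pairs would be the lowest in the same order, ranked by the larger of the 2 means. The rankings include the ratios that chose the pud genes and are a description. Neighbouring copies of a gene can bind each other's probes, and the part of such binding was not tested.

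The genes whose ratios were nearest to those of the pud genes were found by the Euclidean distance over the 4 preps to the mean of pud-4 and pud-2.1, among 14645 other named genes measured on all arrays. In order of distance they were the cuticle collagen gene col-120 at 0.56, the infection response gene irg-4 at 0.71, bli-2, a collagen known for cuticle blisters in its mutants, at 0.86, the collagen gene col-38 at 1.0998, dao-4 at 1.18 and dod-24, known as a gene downstream of DAF-16, at 1.23. The median distance of all compared genes was 11.1. The pud genes themselves lay 1.15 apart, and each of them had 3 other genes nearer to it than the other pud gene.

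The gene nearest to pud-4 alone was bli-2, at a distance of 0.42. Its log2 ratios were 5.46, 5.15, 6.27 and 6.26 on preps 1 to 4, so preps 3 and 4 were high in both genes. Of the 32 other high named genes described above, 25 were also higher on average on those preps. The gene nearest to pud-2.1 alone was irg-4, at 0.57, with log2 ratios of 5.28, 5.02, 5.44 and 5.23. The values of irg-4 shared the narrow range of pud-2.1 but had their lowest value on prep 2, where pud-2.1 was high. By its construction this distance favours genes of similar height.

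**Figure D3:**
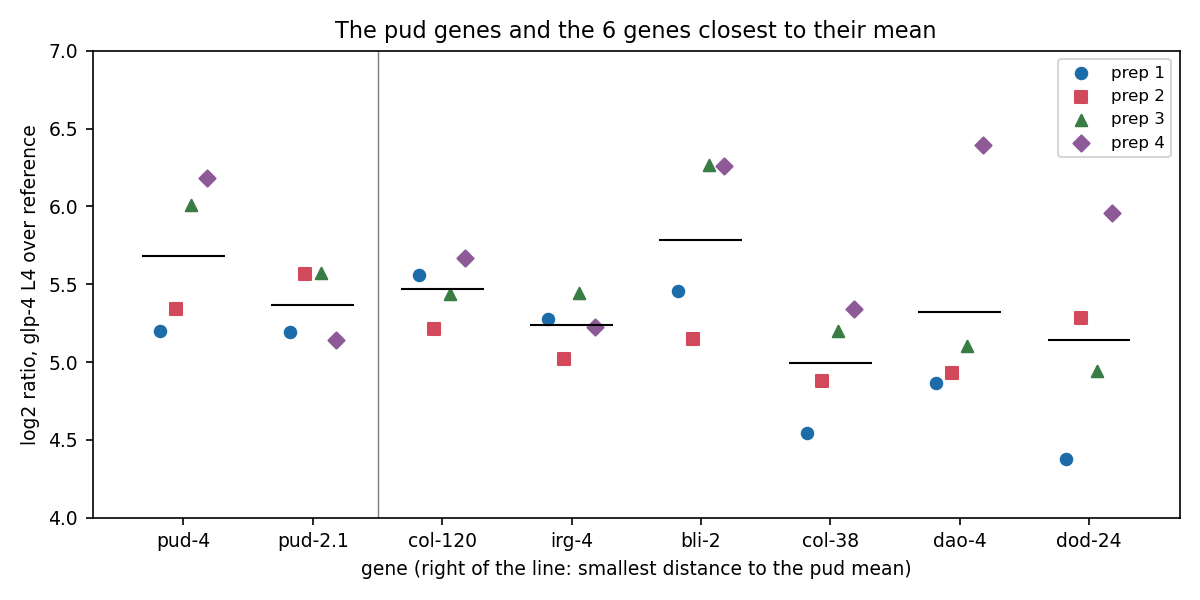
Log2 ratios (glp-4 L4 over reference, vertical axis, starting at 4) of pud-4, pud-2.1 and the 6 named genes nearest to their mean, with a symbol for each prep and a bar at the mean of each gene. Preps 3 and 4 lie above preps 1 and 2 in pud-4, bli-2, col-38 and dao-4. The highest value of dao-4, 6.39, is on prep 4, apart from the other 3.

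The pud genes are known through insulin signalling, and genes of that pathway were set beside them. Of 19 measured components, 2 were higher and 10 lower (limma, adjusted p under 0.05), where 20.6% of all items were higher and 24.4% lower. The median of the list was -0.48, against -0.06 for all items, and the SD of its median over preps was 0.10. Among the larger changes, hcf-1, a regulator of DAF-16, had log2 ratios of -2.01, -1.46, -1.47 and -1.75 on preps 1 to 4 (mean -1.67 ± 0.26), and the kinase gene sgk-1 had 1.01, 1.099, 1.51 and 1.24 (mean 1.21 ± 0.22). The receptor gene daf-2 itself, named after its value was seen, had a mean of -0.51 ± 0.37 (limma adjusted p = 0.039), and daf-16 had -0.48 ± 0.37 (limma adjusted p = 0.051). None of the 19 reached the pud ratios, and without prep 2 the lower count was 6.

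Genes known to be higher when insulin signalling is reduced, as PUD-1 and PUD-2 proteins are, did not share the ratios of pud-4 and pud-2.1. The known rise of PUD-1 and PUD-2 is of protein, while the values here are of RNA. Of 37 listed genes 23 were measured, with 8 higher and 9 lower, against 20.6% and 24.4% of all items. The list median was -0.27, with an SD of the median over preps of 0.22. The median was 0.19, -0.31, -0.02 and -0.21 on preps 1 to 4, and with 1 prep left out it ran from -0.19 without prep 2 to -0.05 without prep 3. The 3 with the largest absolute means were all lower: sip-1, a small heat shock gene, at -4.80 ± 0.37, its relative hsp-12.6 at -4.50 ± 0.75, and lea-1, which encodes a protein related to those of desiccation tolerance, at -2.87 ± 0.40 (SD, n = 4). The highest, hsp-16.1, another small heat shock gene, had a mean log2 ratio of 2.40, against 5.37 for pud-2.1. The superoxide dismutase gene sod-3, a common reporter of DAF-16 activity and named after its value was seen, had 0.71 ± 0.16 (limma adjusted p = 0.0033).

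Genes known to be lower when insulin signalling is reduced held more of the high ratios. Among 20 measured genes there were 12 higher and 5 lower ones, against 20.6% and 24.4% of all items. The list median was 0.996 with an SD of the median over preps of 0.18. The largest were dod-21, at log2 ratios of 4.94, 4.73, 6.40 and 7.50 on preps 1 to 4 (mean 5.89 ± 1.305), dod-24 at 5.14 ± 0.66 and dod-19 at 4.45 ± 0.45, and dod-21 alone of the 20 lay above pud-2.1. Like pud-4, dod-21 was higher on preps 3 and 4. It is among the 25 of 32 other named genes with a mean of at least 4 and values on all arrays that were so. The 5 that were lower, chosen for naming after their values were seen, were the yolk protein genes vit-2, vit-5 and vit-6 at -4.11, -3.77 and -3.55, pes-2.1 at -2.91 and dod-23 at -2.58.

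The intestine and the epidermis are the tissues where PUD-1 and PUD-2 are known. Among 38 measured intestinal genes 31 were higher and 2 lower, against 20.6% and 24.4% of all items. The list median was 1.595 with an SD of the median over preps of 0.11. The lower 2, named after their values were seen, were the ferritin gene ftn-1 at -1.96 and the protease gene asp-1 at -0.48, and 1 was lower without prep 1, prep 3 or prep 4. The largest were dod-24, the transporter gene pgp-1 at 3.69 ± 0.55 and the protease gene cpr-5 at 3.38 ± 0.48. Among the 41 measured genes of the epidermal list 25 were higher and 6 lower, against 20.6% and 24.4% of all items. The list median was 1.01 with an SD of the median over preps of 0.27. The highest were the collagens bli-2 at 5.78 ± 0.57 and bli-1 at 3.98 ± 0.08 and the hedgehog-related gene wrt-6 at 3.49 ± 0.22. The 6 lower genes were hch-1 at -1.17, let-413 at -0.93, elt-1 at -0.67, peb-1 at -0.66, elt-3 at -0.41 and nhr-25 at -0.38. Listing these 6 was decided with the results in view. The list also holds phat-2, of a pharyngeal gland gene family, which was higher at 0.91. Without prep 2 the lower count was 3. Both tissue lists were therefore mostly higher, yet in them only bli-2 reached the mean of pud-2.1. The intestinal list shares 4 genes with the list known to be lower under reduced insulin signalling, which are 10.5% and 20% of the 2 lists.

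The germline list served as a check of the label. Among 36 measured genes there were 35 lower and 0 higher ones, against 24.4% and 20.6% of all items. The list median was -2.97 with an SD of the median over preps of 0.10. The exception was gld-2, at -0.33 ± 0.23 (limma adjusted p = 0.10), and the largest were pos-1, a maternal RNA-binding protein gene, at -5.06 ± 0.67, the egg surface gene egg-1 at -5.03 ± 0.24 and oma-2, of oocyte maturation, at -4.91 ± 0.39. This list was chosen for what glp-4 is known for. Its sign bears on the direction of the ratio only if the preps held less germline than the reference. The labels do not state that, so the direction remains likely but not settled. RNA of the germline makes up part of the reference, and its part in the pud ratios was not tested. The genes named by rule from the 6 lists had a limma adjusted p of at most 0.00025, and at most 0.0024 with any single prep left out.

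**Figure D4:**
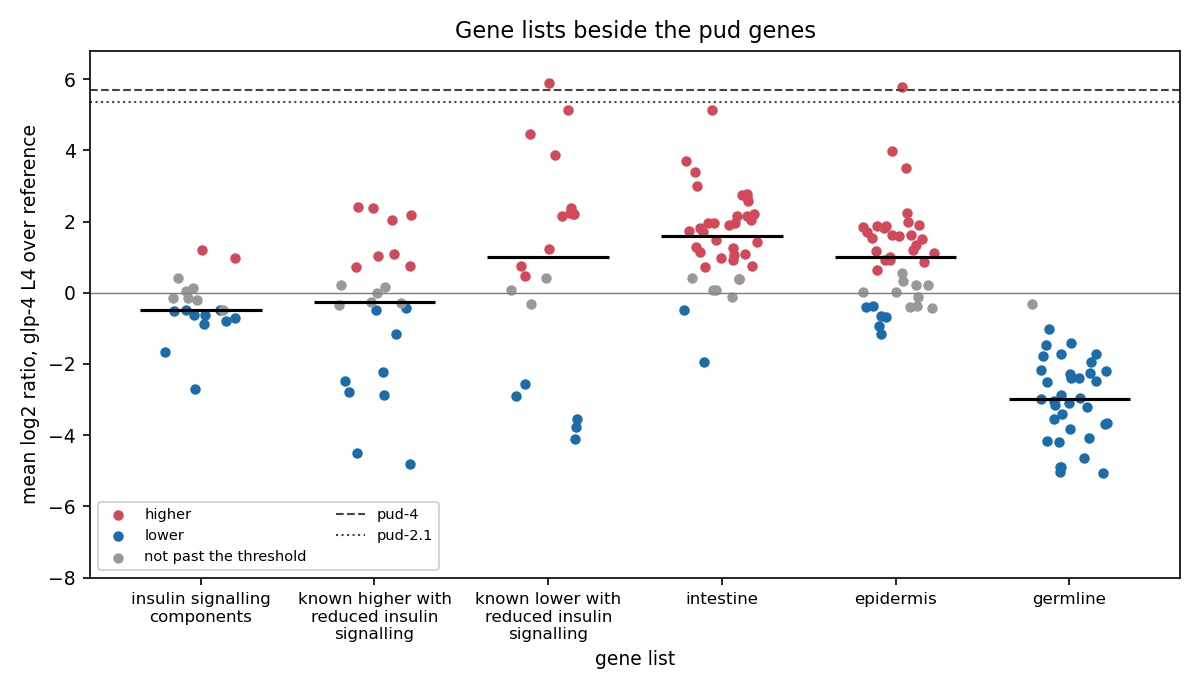
Mean log2 ratio over the 4 preps (glp-4 L4 over reference, vertical axis) of each measured gene in 6 lists, coloured by the call at a limma adjusted p under 0.05, with a bar at the median of each list and lines at pud-4 and pud-2.1. Of the listed genes only dod-21 and bli-2 lie above the pud-2.1 line, and the germline list lies below 0.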

How the data were processed

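Per the labels, each of 4 arrays set total RNA of 1 glp-4 L4 prep against a wild-type mixed-stage reference. The deposited values are log2 ratios: raising 2 to them gave ratios stored in thousandths (tolerance 0.01) for 100% of ratios under 20. The sources used here name no scanner, background correction or dye normalization. Column medians were 0.02, -0.03, -0.12 and -0.08 for preps 1 to 4.

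Of 21632 probes, 16450 had 1 gene symbol, 247 several and 4935 none here. Platform names were updated through RefSeq (WBcel235). Where a gene had several probes, their mean per array was used. Items with values on at least 3 arrays (19989) were compared with 0 by limma 3.58.1 under R 4.3.3 (intercept, eBayes, two-sided, Benjamini-Hochberg), tested on simulated data. The reference's own spread is left out. The group is a single one, so no pairing exists.

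The members and lists were chosen with earlier results of these data known. Named were the members, the 5 genes beside them, the 6 nearest in ratio, and per list the 3 largest absolute means past the threshold with values of 1 sign on all 4 arrays. One gene that this rule names is not reported here. Alternatives were centring, scaling, omitted or averaged preps, other thresholds and filters, a fit per probe, no moderation and turned signs.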

Additional observations from a re-analysis of the deposited data

Results flagged for a closer look

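Dixon's ratio was computed for 34 sets of values over the 4 preps, those of the named genes and lists. In 2 sets a single prep lay far from the rest, and about 1 set in 20 does so by chance. Prep 2 gave 0.95 for irld-32, the measured gene next after the pud genes, while its remaining values ran from 0.28 to 0.36. Prep 4 gave 6.39 for dao-4, 1 of the 6 genes nearest to the pud mean, while its remaining values ran from 4.86 to 5.11. Neither pud-4, pud-2.1 nor their difference stood out in this way.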

How the results depend on the processing

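The means of pud-4 and pud-2.1 kept their sign and moved by less than their SD under centring, scaling, averaging preps 3 and 4, and leaving out each prep (5.52 to 5.85 for pud-4 and 5.30 to 5.44 for pud-2.1). With every sign turned they were -5.68 and -5.37, by construction. The difference pud-4 minus pud-2.1 ran from 0.07 to 0.496 with 1 prep left out and was 0.17 with preps 3 and 4 averaged. With 1 prep left out, the median of genes known to rise under reduced insulin signalling ran from -0.19 to -0.05. All 6 genes nearest to the pud mean were also the 6 nearest to pud-4. Each measured pud gene had 1 probe, so no probe could be varied, and the promoter motifs planned were not run because no promoter sequences were used here. No paired analysis was possible because all 4 preps form a single group.

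Over all items, 8987 were different from 0 (4113 higher, 4874 lower). The count was 5305 without moderation (2524 and 2781) and 3980 at an absolute mean of at least 1 (2063 and 1917), and with the threshold at 0.01 the lower items numbered 3093. Omitting single preps moved the lower count from 6 to 10 for insulin signalling components, from 1 to 2 for intestine and from 3 to 8 for epidermis, and the intestine median from 1.49 to 1.69. At an absolute mean of at least 1, insulin components had 1 higher and 2 lower, and intestine and epidermis had 1 lower each. Without moderation, 4 genes known to rise under reduced insulin signalling were higher, and 2 known to fall, 1 intestinal and 3 epidermal genes were lower. At an adjusted p under 0.01, 1 intestinal and 2 epidermal genes were lower, and 1 intestinal gene was lower with arrays scaled or preps 3 and 4 averaged. With every sign turned the list counts swap sides (10 higher and 2 lower for insulin components, 5 and 12 for genes known to fall, 2 and 31 for intestine, 6 and 25 for epidermis, 35 and 0 for germline) and the list medians become 0.48, 0.27, -0.996, -1.595, -1.01 and 2.97 in the order of the report.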
